A study of Mus musculus with 6 samples.

Results

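The CCN genes encode a small family of secreted matricellular proteins, and 5 of them, Ccn1, Ccn2, Ccn3, Ccn4 and Ccn5, are described here in mouse muscle cells. They were taken by gene name from a table of 56792 gene rows; all 5 had a row, and all 5 had enough counts to be among the 14989 rows tested. The family was chosen with the difference between lenvatinib and untreated libraries already known. The fold changes of its genes are therefore a description of these 6 libraries, given with no p-value. C2C12 is a mouse myoblast line, wild type per the labels, whose cells form multinucleated myotubes in low serum. The drug lenvatinib, given by mouth in cancer, inhibits the receptor tyrosine kinases for vascular endothelial growth factor and fibroblast growth factor and a few related receptors. RNA was sequenced from C2C12 cells after 4 days of differentiation in horse serum with 1 µM lenvatinib (3 libraries) and from cells differentiated for as long without it (3 libraries). The labels give neither the solvent in the untreated cells nor the time at which the drug was added, and they do not say whether replicates were separate cultures, so errors and p-values cover the spread between these libraries only.

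A CCN protein is built from up to 4 modules: an insulin-like growth factor (IGF) binding domain, a von Willebrand factor type C repeat, a thrombospondin type 1 repeat and a C-terminal cystine knot, which CCN5 lacks. These proteins do not build the matrix. They bind integrins, heparan sulfate proteoglycans, growth factors and matrix proteins, and so alter how cells read their surroundings. Ccn1 and Ccn2 are standard target genes of the transcriptional co-activators YAP and TAZ and of TGF-beta, and in skeletal muscle CCN2 is best known for its part in fibrosis.

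Total counts were 24585849, 24566768 and 32406563 in the lenvatinib libraries and 26597093, 25529288 and 28886472 in the untreated libraries. Levels are given as CPM, that is, read counts divided by library size after TMM scaling (edgeR's CPM), and the floor set by 3 counts is 0.0927 to 0.123 CPM. The 10 muscle markers summed to 14116 to 14830 CPM in lenvatinib libraries and to 14285 to 15156 CPM in untreated libraries, with 5 called higher and 4 lower. Called means an adjusted p under 0.05, which held for 28.2% of all tested rows (13.3% higher, 14.9% lower). The 8 fibroblast markers, of a cell type known for high CCN expression, summed to 329 to 351 CPM in lenvatinib libraries and to 348 to 359 CPM in untreated libraries; 3 of the 6 tested passed as higher and 2 as lower. The 6 macrophage markers summed to 5.62 to 5.85 CPM in lenvatinib libraries, against 6.47 to 7.03 CPM in untreated libraries, without overlap, and 1 of the 3 tested was called lower; Adgre1 was at 0 in every library. Osteoblast markers summed to 30 to 32.3 CPM in lenvatinib libraries and to 34.5 to 39.4 CPM in untreated libraries without overlap, and 1 of the 2 tested was called lower. Adipocyte markers summed to 36.6 to 41.6 CPM in lenvatinib libraries and to 40.7 to 42.6 CPM in untreated libraries, and chondrocyte markers to 31 to 33.2 CPM in lenvatinib libraries and to 32.3 to 36.6 CPM in untreated libraries. Endothelial markers summed to 2.1 to 2.5 CPM in lenvatinib libraries and to 1.88 to 2.48 CPM in untreated libraries. Plin1, Acan and Ibsp were at 0 in every library. The part of these marker levels in the results below was not tested. In bulk RNA a change in the share of a cell type cannot be told apart from a change in RNA per cell.

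The promoter of Ccn1 is shown because this gene had the highest level of the family per kilobase and because the CATTCC element, read by the YAP/TAZ partners of the TEAD family, is a well-known route to it. RefSeq promoters were found for 2 of the 6 family genes looked up, Ccn1 and Ccn6. The 250 bases before the RefSeq start of Ccn1 lie at chr3:145649986-145650235 of GRCm38.p6 on the minus strand. They are printed 5′ to 3′ with the TEAD match in capitals.
Ccn1 promoter: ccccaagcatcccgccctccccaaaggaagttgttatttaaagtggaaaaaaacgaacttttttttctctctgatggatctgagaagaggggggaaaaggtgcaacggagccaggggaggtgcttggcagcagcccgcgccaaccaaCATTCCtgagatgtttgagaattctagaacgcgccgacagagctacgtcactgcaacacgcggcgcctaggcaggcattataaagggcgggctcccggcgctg
GGAATG, the TEAD motif, occurred once here on the opposite strand, where it reads CATTCC, from 103 to 98 bases before the start. Of the 32851 promoter windows of this length in the table, 12.6% hold that motif on either strand. The window held no match to the CArG box of SRF (found in 1.47% of windows), to the AP-1 motif TGANTCA (6.75%) or to the SMAD motif CAGACA (17.1%), each searched on both strands. A match describes the letters of this window and is not evidence of binding in these cells.

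With lenvatinib, 4 of the 5 CCN genes were higher, and Ccn4 was not called and had overlapping groups. Ccn3 had the largest ratio, 4.11-fold, followed by Ccn5 at 2.98-fold, Ccn2 at 2.39-fold and Ccn1 at 1.83-fold. In these 4 genes every lenvatinib library lay above every untreated library. They were also called by the rule applied to every row, an adjusted p under 0.05 in the edgeR quasi-likelihood test. Over all tested rows that rule called 13.3% as higher and 28.2% in either direction, and the groups did not overlap in 40.1% (19.6% with lenvatinib higher). Because the family was picked on this contrast, nothing is read from 4 of 5 being called. The median log2 fold change of the 5 genes was 1.25, against 0.0027 over all tested rows.

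**Figure D1:**
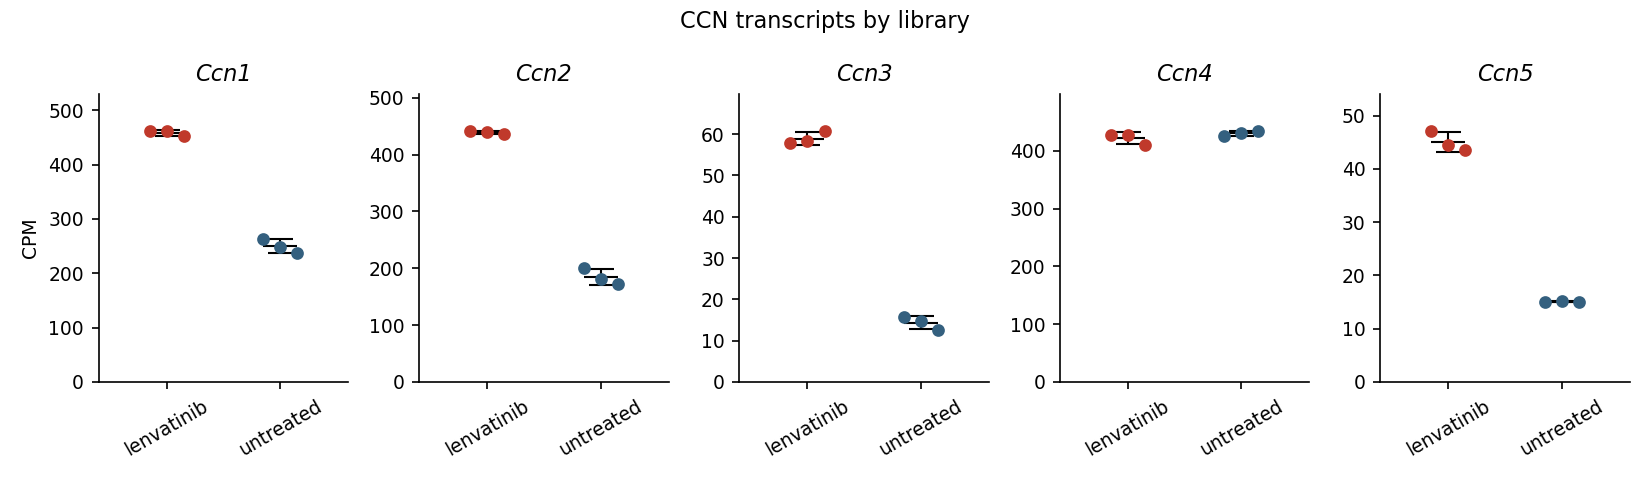
Level of each CCN gene in CPM (vertical axes start at 0 and differ between panels) in the 3 lenvatinib and the 3 untreated libraries; points are libraries, and black bars are the mean and SD. The groups are apart in Ccn1, Ccn2, Ccn3 and Ccn5 and overlap in Ccn4, where all 6 libraries lie between 410 and 434 CPM.

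Ccn1 and Ccn2 are the immediate early, serum-responsive members of the family. Ccn1, formerly Cyr61, encodes an integrin ligand that promotes adhesion, migration and angiogenesis. Its row (ENSMUSG00000028195, chromosome 3, 145352731 to 145355736 as deposited) had 462, 461 and 452 CPM in the lenvatinib libraries and 264, 249 and 238 CPM in the untreated libraries. The lowest lenvatinib library was 1.71 times the highest untreated one. The means were 458 ± 5.62 CPM with lenvatinib and 250.2 ± 12.9 CPM without it (SD, n = 3 each), a log2 fold change of 0.87 ± 0.03 (SE).

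Ccn2, formerly Ctgf or connective tissue growth factor, encodes a protein that binds TGF-beta and BMPs and is a marker of fibrotic tissue. Its row (ENSMUSG00000019997, chromosome 10, 24471340 to 24474581) had 441, 440.3 and 435 CPM in the lenvatinib libraries and 199.5, 180.3 and 172 CPM in the untreated libraries. The lenvatinib values lay closer together than counting error alone would place them, and the untreated values were spread more widely and far below them. The log2 fold change was 1.25 ± 0.04 (SE), from means of 439 ± 3.12 CPM with lenvatinib and 184 ± 14.1 CPM without it (SD, n = 3 each). A row on the opposite strand, Gm15270, overlaps Ccn2, but it held only 67 counts over all 6 libraries.

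Ccn3, formerly Nov, encodes a member that binds NOTCH1 and integrins, is largely linked to slower proliferation and counteracts CCN2 in several models. Its row (ENSMUSG00000037362, chromosome 15, 54609098 to 54617435) had 57.8, 58.3 and 60.7 CPM in the lenvatinib libraries and 15.8, 14.8 and 12.6 CPM in the untreated libraries. Even the closest pair of libraries, 1 from each group, differed 3.66-fold. The log2 fold change was 2.04 ± 0.06 (SE), and 18 of the 14989 tested rows had a larger one. Of the 10989 rows that reached a mean of 5 CPM in either group, 9 did.

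Ccn5, formerly Wisp2, encodes the short member without the C-terminal module and is known in heart and smooth muscle for opposing CCN2. Its row (ENSMUSG00000027656, chromosome 2, 163662781 to 163675066) had 47.1, 44.5 and 43.6 CPM in the lenvatinib libraries and 15.04, 15.2 and 15.1 CPM in the untreated libraries. The untreated values came from 400, 387 and 434 counts and lay closer together than counting error alone would place them, and the lenvatinib values all lay well above them. The means were 45.1 ± 1.83 CPM with lenvatinib and 15.1 ± 0.0628 CPM without it (SD, n = 3 each), a log2 fold change of 1.58 ± 0.06 (SE). Only 36 tested rows had a larger log2 fold change.

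Ccn4, formerly Wisp1, is a target gene of Wnt and beta-catenin signaling and is known in muscle as a signal from fibro-adipogenic progenitors to satellite cells. Its row (ENSMUSG00000005124, chromosome 15, 66763169 to 66795050) had 428, 428 and 410.3 CPM in the lenvatinib libraries and 425, 431 and 434 CPM in the untreated libraries. The groups overlapped. The log2 fold change was -0.03 ± 0.03 (SE), and its 95% interval ran from -0.08 to 0.02. This interval uses a normal approximation, which makes it somewhat too narrow for 3 libraries per group. Ccn6, formerly Wisp3, had 0 counts in every lenvatinib library and 2, 0 and 1 counts in the untreated libraries. That is at or under the floor of 3 counts per library, so no fold is given.

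**Figure D2:**
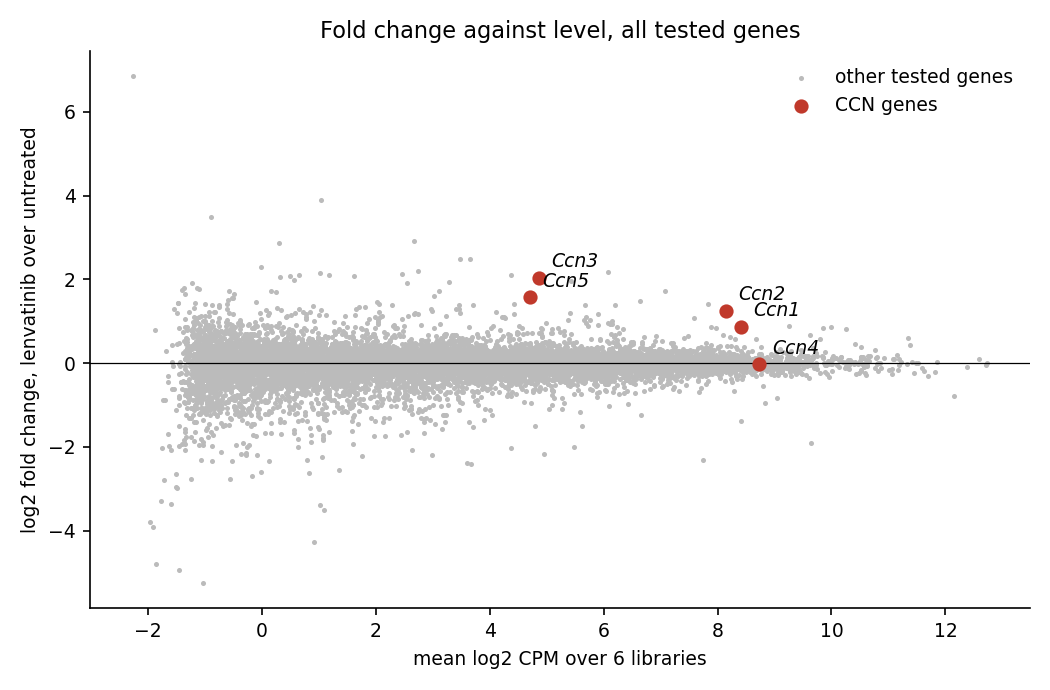
Log2 fold change, lenvatinib over untreated, against the mean log2 CPM over the 6 libraries for the 14989 tested rows (grey) and the 5 CCN genes (red). Ccn3 and Ccn5 stand at 2.04 and 1.58 and the more abundant Ccn2 and Ccn1 at 1.25 and 0.87, while Ccn4 lies at -0.03.

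Replicates of a group were not equally close in all members. The coefficient of variation among lenvatinib libraries was 1.23% for Ccn1, 0.711% for Ccn2 and 2.67% for Ccn3, and counting error alone gives 0.896%, 0.916% and 2.49%. Among untreated libraries it was 5.16% for Ccn1, 7.64% for Ccn2 and 11.5% for Ccn3, where counting error alone gives 1.22%, 1.42% and 5.09%. The first untreated library was the highest of its group for these 3 genes, and the third was the lowest. For Ccn4 and Ccn5 the coefficients were 2.39% and 4.06% among lenvatinib libraries and 1.08% and 0.416% among untreated libraries, where counting error alone gives 0.935% and 2.86% with lenvatinib and 0.928% and 4.96% without it. The spreads of untreated Ccn5 and of Ccn2 with lenvatinib were thus below those of counting alone and are no measure of precision. In Ccn1, Ccn2, Ccn3 and Ccn5 the spreads of both groups are small beside the difference between the groups.

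Levels of different genes are compared per kilobase of the deposited feature length. Ccn1 was the most abundant transcript in both groups, at 227 ± 2.78 CPM per kilobase with lenvatinib and 124 ± 6.39 CPM per kilobase without it (SD, n = 3 each). Ccn2 came next, at 153 ± 1.09 CPM per kilobase with lenvatinib and 64.3 ± 4.91 CPM per kilobase without it. Ccn4 followed at 38.2 ± 0.916 and 39 ± 0.421 CPM per kilobase with and without the drug. Ccn5 had 22.7 ± 0.92 CPM per kilobase with lenvatinib and 7.59 ± 0.0316 CPM per kilobase without it, and Ccn3 was lowest at 20.5 ± 0.549 and 5.01 ± 0.578 CPM per kilobase with and without the drug. No neighbours in this order overlapped over their 3 libraries in either group. The order depends on the length used for Ccn4, whose deposited feature of 11032 bases is longer than its longest coding transcript of 5097 bases in GENCODE M21. Per kilobase of that transcript Ccn4 had 82.8 ± 1.98 CPM with lenvatinib and 84.4 ± 0.911 CPM without it, which places it above Ccn2 in the untreated cells (73.9 ± 5.65 CPM per kilobase) and below it in lenvatinib cells (176 ± 1.25 CPM per kilobase).

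Summed over the 5 genes, the family had 462 ± 4.94 CPM per kilobase in lenvatinib libraries and 239.7 ± 11.4 CPM per kilobase in untreated libraries (SD, n = 3 each), a ratio of 1.93. The steepest fold changes contributed little to that difference. Ccn1 and Ccn2 together made up 86.6% of it, Ccn3 7% and Ccn5 6.79%. The share of Ccn4 in the summed level was 8.28% ± 0.113 with lenvatinib and 16.3% ± 0.939 without it, although its own level hardly differed. The share of Ccn2 was 33.2% ± 0.12 with lenvatinib and 26.8% ± 0.774 without it, and that of Ccn1 was 49.1% ± 0.109 and 51.6% ± 0.227 with and without the drug. The share of Ccn3 was 4.45% ± 0.167 with lenvatinib and 2.09% ± 0.155 without it. Shares also depend on the length used. Per kilobase of the longest coding transcript the share of Ccn4 was 15.5% ± 0.195 with lenvatinib and 28.6% ± 1.42 without it. The difference in the share of Ccn1 then turned round, to 42.6% ± 0.0636 with lenvatinib and 41.9% ± 0.517 without it, so no direction is given for it.

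**Figure D3:**
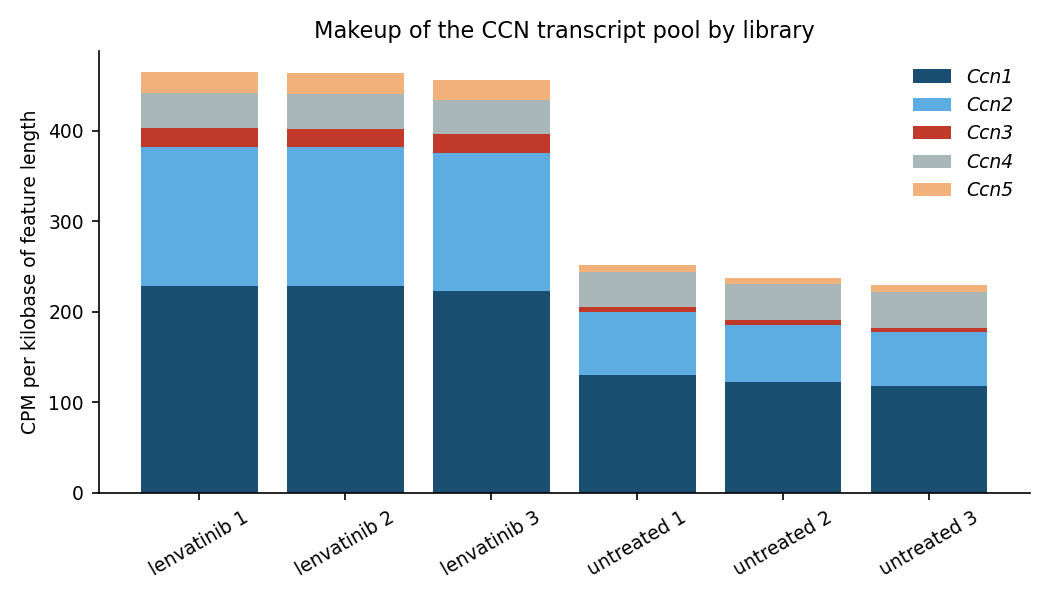
Summed level of the 5 CCN genes in each library, in CPM per kilobase of the deposited feature length, stacked by gene. The 3 lenvatinib libraries reach 456 to 465.3 CPM per kilobase and the 3 untreated libraries 229 to 251.9 CPM per kilobase; most of the extra height is Ccn1 and Ccn2.

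Ratios of counts within a library do not depend on how libraries are scaled, and Ccn4 served as the denominator. Per 100 Ccn4 counts there were 108, 107.8 and 110.1 counts of Ccn1 in the lenvatinib libraries and 62.1, 57.6 and 54.9 in the untreated libraries. For Ccn2 the ratio was 103, 102.9 and 106 in the lenvatinib libraries and 46.9, 41.8 and 39.7 in the untreated libraries. In raw counts, which also depend on gene length, each of these genes thus lay above Ccn4 in every lenvatinib library and below it in every untreated one. For Ccn3 the mean ratio was 14 ± 0.716 with lenvatinib and 3.34 ± 0.418 without it, and for Ccn5 10.7 ± 0.316 with lenvatinib and 3.51 ± 0.032 without it (SD, n = 3 each).

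The closely related pair Ccn1 and Ccn2 did not keep its proportion. Per 100 Ccn1 counts there were 95.5, 95.4 and 96.4 counts of Ccn2 in the lenvatinib libraries and 75.6, 72.5 and 72.3 in the untreated libraries, without overlap. Likewise the ratio of Ccn3 to Ccn5, the scarce members, was 131 ± 8.3 counts of Ccn3 per 100 of Ccn5 with lenvatinib and 95.2 ± 11.1 without it (SD, n = 3 each), and its groups did not overlap.

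**Figure D4:**
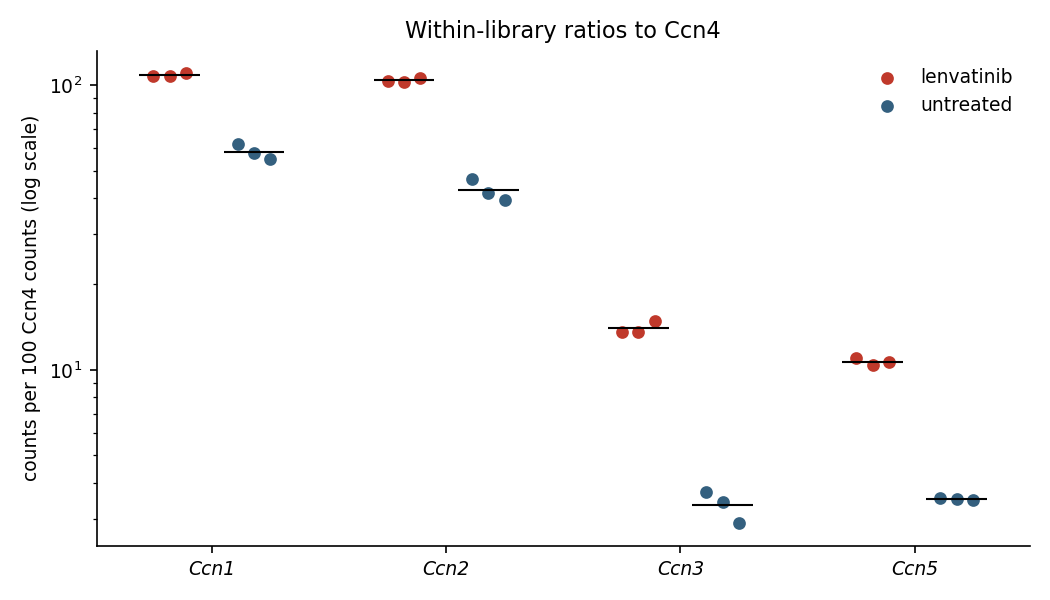
Counts of Ccn1, Ccn2, Ccn3 and Ccn5 per 100 counts of Ccn4 within each library, on a log axis, for lenvatinib and untreated libraries; points are libraries and lines are group means. The means are 109 and 58.2 for Ccn1, 104 and 42.8 for Ccn2, 14 and 3.34 for Ccn3, and 10.7 and 3.51 for Ccn5, with and without lenvatinib.

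The genes with the most similar pattern were those with the smallest root mean square difference in mean-centred log2 CPM over the 6 libraries, among 10011 named genes whose higher group reached a mean of 5 CPM. For Ccn1 they were P4ha3, a collagen prolyl 4-hydroxylase subunit, at a difference of 0.037, and the metalloproteinase inhibitor Timp3 at 0.038. For Ccn2 they were Tmc3, a transmembrane channel-like gene, at 0.068, and the neuronal nitric oxide synthase Nos1 at 0.079. For Ccn3 they were the fibulin Fbln7 at 0.051 and the collagen Col8a2 at 0.12. For Ccn5 they were the cadherin-related Cdhr1 at 0.088 and the actin-binding Tagln at 0.092, and for Ccn4, which hardly varied, Gpbp1l1 at 0.0069 and Rtraf at 0.0075. With 2 groups this measure mainly finds genes of like fold change.

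The 8 gene lists below were also chosen with earlier results of these data known. Their called shares and p-values describe these libraries and are not independent evidence. Receptors and co-receptors of CCN proteins went both ways. Of the 20 tested genes of that list, 6 were higher and 5 lower with lenvatinib (55%, against 28.2% over all tested rows), and the median log2 fold change was 0.02. Among integrin subunits, Itga6, which pairs with beta1 to bind CCN1, rose to 289.9 ± 6.58 CPM, against 239.5 ± 11.7 CPM in untreated libraries (0.27 ± 0.03, edgeR adjusted p = 4.33e-09). The beta subunits that pair with integrin alpha-v divided, and Itgb8 among them, picked out after its values were seen, did not pass (adjusted p = 0.981). Itgb3 fell to 22.6 ± 0.639 CPM, against 34.3 ± 1.26 CPM in untreated libraries (-0.60 ± 0.06, adjusted p = 1.59e-11), Itgb5 was also lower (-0.17 ± 0.03, adjusted p = 4.78e-06), and Itgb6 rose by 0.29 ± 0.05 (adjusted p = 2.52e-06). The alpha-v gene Itgav had 224 CPM with lenvatinib and 215 CPM without it, and Itgb1 had 1388 and 1351 CPM with and without it; neither passed (adjusted p = 0.216 and 0.266). Notch1, which encodes a partner of CCN3, rose to 81.2 ± 5.66 CPM, against 57.95 ± 1.34 CPM in untreated libraries (0.49 ± 0.04, adjusted p = 1.25e-11). The heparan sulfate proteoglycan gene Sdc1 fell (-0.24 ± 0.03, adjusted p = 6.54e-08), and another syndecan gene, Sdc4, named after its values were seen, rose by 0.18 ± 0.03 (adjusted p = 2.78e-06). The more abundant syndecan gene Sdc2, also named after its values were seen, did not pass (adjusted p = 0.302). It had 586 CPM with lenvatinib and 602 CPM without it.

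Of 12 tested growth factors and matrix proteins that CCN proteins bind, 4 were higher and 5 lower (75%, against 28.2% over all tested rows), with a median log2 fold change of -0.12. Igf1 rose most of those named, to 72.3 ± 3.81 CPM, against 35.2 ± 1.43 CPM in untreated libraries (1.04 ± 0.05, edgeR adjusted p = 1.08e-21). Pdgfb and Bmp4 rose by 0.48 ± 0.05 (adjusted p = 1.02e-09) and 0.19 ± 0.04 (adjusted p = 0.000448). The proteoglycan gene Bgn (-0.26 ± 0.02, adjusted p = 9.28e-12), the growth factor gene Fgf2 (-0.32 ± 0.06, adjusted p = 3.6e-05) and Tgfb1 (-0.16 ± 0.04, adjusted p = 0.00052) were lower. Fn1, picked out after its values were seen, had the largest fall of the list (-0.78 ± 0.13, adjusted p = 0.0143). Bmp2, Bmp7, Igf2 and Acan were not tested.

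Genes for factors that regulate Ccn1 and Ccn2 moved in both directions. Of 19 genes for YAP/TAZ-TEAD, SRF-MRTF and SMAD factors and their inhibitors, 6 were higher and 3 lower (47.4%, against 28.2% over all tested rows), with a median log2 fold change of 0.03. The TEAD cofactor Vgll3 rose by 0.37 ± 0.03 (adjusted p = 1.91e-13), the Hippo kinase Lats2 by 0.26 ± 0.05 (adjusted p = 1.76e-05) and Tead1 by 0.18 ± 0.03 (adjusted p = 1.33e-05). Wwtr1, which encodes TAZ, fell (-0.20 ± 0.03, adjusted p = 8.9e-08), as did Tead2 (-0.21 ± 0.04, adjusted p = 7.2e-05) and Smad4 (-0.11 ± 0.04, adjusted p = 0.0141). Smad4 no longer passed without the third lenvatinib library or without the first untreated library (adjusted p = 0.112 in each case). Yap1 was at 112 ± 2.85 CPM with lenvatinib and 119 ± 1.58 CPM without it and did not pass (adjusted p = 0.052). These are transcript levels and do not report on the activity or location of the proteins.

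Other target genes of the same pathways moved in both directions. Of 21 YAP/TAZ targets outside the CCN family 10 were higher and 5 lower (71.4%, against 28.2% over all tested rows), with a median log2 fold change of 0.22. Crim1 rose to 71.9 ± 1.89 CPM, against 36.9 ± 3.16 CPM in untreated libraries (0.96 ± 0.05, adjusted p = 5.44e-18), Tgfb2 by 0.52 ± 0.04 (adjusted p = 5.62e-13) and Amotl2 by 0.39 ± 0.03 (adjusted p = 1.6e-15). Asap1 (-0.28 ± 0.03, adjusted p = 1.47e-10), Amotl1 (-0.19 ± 0.03, adjusted p = 2.95e-07) and Dock5 (-0.22 ± 0.04, adjusted p = 9.74e-06) were lower. Ankrd1, which is often measured beside Ccn1 and Ccn2 as a YAP readout and was picked out after its values were seen, was at 1252 CPM with lenvatinib and 1296 CPM without it and did not pass (-0.05 ± 0.02, adjusted p = 0.118).

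Of 14 tested TGF-beta targets 8 were higher and 3 lower (78.6%, against 28.2% over all tested rows), with a median of 0.18. Tagln rose by 1.40 ± 0.03 (adjusted p = 8.05e-33) and the collagen gene Col1a2 by 0.38 ± 0.03 (adjusted p = 1.67e-14). Ltbp2 (-0.66 ± 0.04, adjusted p = 1.06e-15), Tsc22d1 (-0.14 ± 0.03, adjusted p = 6.62e-05) and Bhlhe40 (-0.10 ± 0.03, adjusted p = 0.00512) were lower. Smad7 and Skil, feedback genes that stand both here and among the regulators, did not pass (adjusted p = 0.0923 and 0.953), and Tgfbi was not tested.

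Wnt and beta-catenin targets are given beside Ccn4, which belongs to that group. Of 8 tested, 3 were higher and 5 did not pass, with a median of 0.05. The called share of 37.5% is near the 28.2% over all tested rows. Nkd2, a feedback inhibitor, rose to 26.1 ± 0.441 CPM, against 11.2 ± 0.374 CPM in untreated libraries (1.22 ± 0.07, adjusted p = 2.92e-18), and Axin2 rose by 0.65 ± 0.10 (adjusted p = 2.5e-06). Nkd1, Sp5, Rnf43 and Dkk1 were not tested.

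Genes that share the IGF-binding domain with the CCN family divided. Of 10 tested, 3 were higher and 3 lower (60%, against 28.2% over all tested rows), with a median of 0.07. Igfbp3 rose to 7.79 ± 1.37 CPM, against 2.97 ± 0.301 CPM in untreated libraries (1.38 ± 0.14, adjusted p = 8.59e-11), and Igfbp2 by 0.72 ± 0.04 (adjusted p = 6.1e-15), beside Crim1. Igfbp4 (-0.71 ± 0.07, adjusted p = 9.76e-11), Igfbp5 (-0.24 ± 0.02, adjusted p = 1.64e-10) and the secreted protease gene Htra3 (-0.39 ± 0.07, adjusted p = 5.56e-05) were lower. Crim1 and Igfbp3 are also on the YAP/TAZ list, so these lists are not independent. Igfbp1, Igfbpl1, Htra4 and Esm1 were not tested. Among proteases that cleave CCN proteins 4 of 10 had enough counts, with 1 higher and 2 lower (75%, against 28.2% over all tested rows). Mmp2 rose by 0.12 ± 0.03 (adjusted p = 0.00038), and Mmp14 (-0.21 ± 0.03, adjusted p = 3.38e-08) and Adamts4 (-0.34 ± 0.04, adjusted p = 1.79e-09) were lower. Htra1, which is also on the IGF-binding list, did not pass (adjusted p = 0.263).

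**Figure D5:**
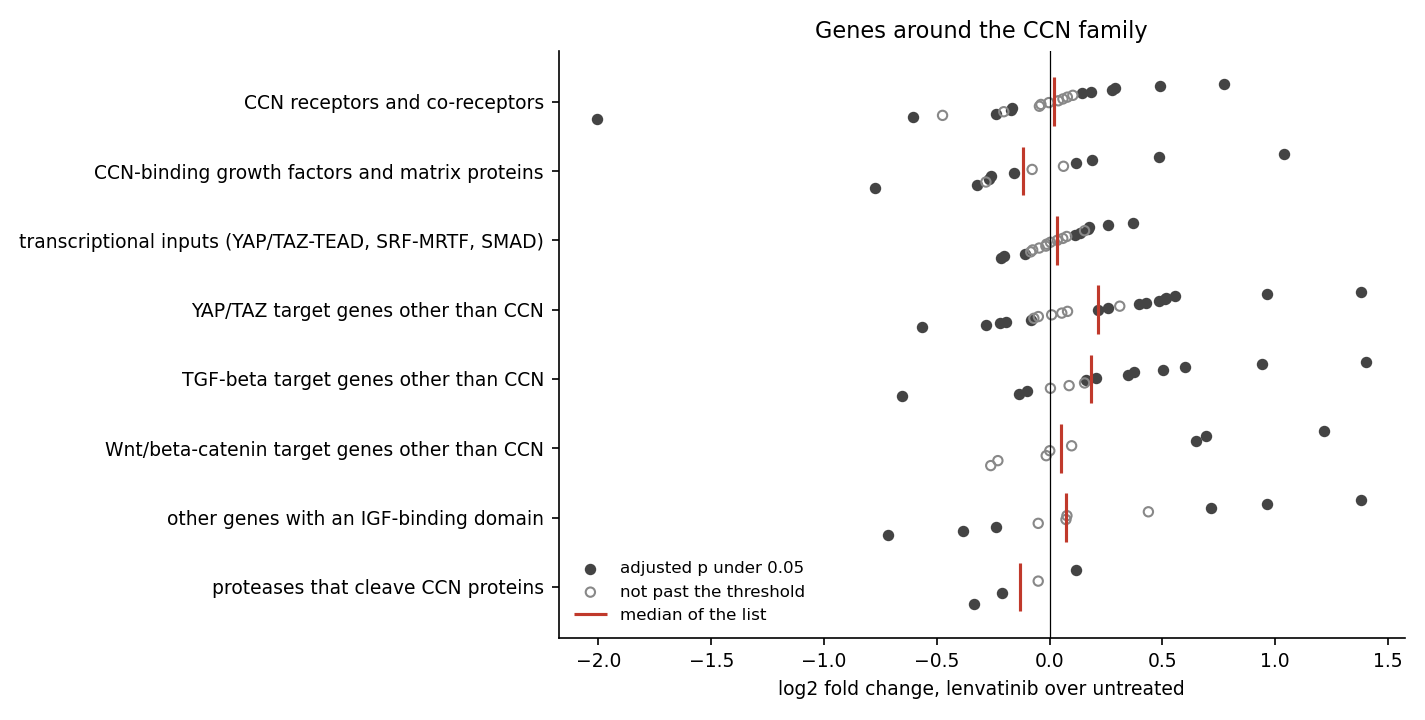
Log2 fold change, lenvatinib over untreated, of the tested genes in the 8 lists around the CCN family (1 row of points per list; filled points have an adjusted p under 0.05, open points do not, and the red line is the list's median). List medians lie between -0.13 and 0.22, and every list but the Wnt list holds called genes on both sides of 0.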

How the data were processed

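RNA from 6 C2C12 libraries, 3 with lenvatinib and 3 untreated, was analysed from gene counts. The authors deposited whole-number counts per gene row, not normalized, and a feature length in bases (unit other). The aligner was Hisat2 2.0.1, per the labels' protocols; HTSeq 0.6.1 and mm10 are named in the submitters' processing notes. The labels do not state whether counting used strand. Groups came from sample titles and columns were matched by name. Positions are printed as deposited, without a build, and differ from GRCm38 for the CCN genes.

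Computed here were CPM and log2 fold changes. The test was the quasi-likelihood test of edgeR 4.0.16 (R 4.3.3; robust glmQLFit, TMM, filterByExpr with minimum count 10 and minimum total 15), with Benjamini-Hochberg adjustment over 14989 rows; it was tested on simulated data. The SE came from the F statistic. Library pairs within groups differed beyond sampling noise (chi-square per degree of freedom 2.78 to 5.6). Floors cover counting error only.

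The CCN members and the 8 gene lists were chosen with earlier results of these data known. Named genes were the members, up to 3 genes per list and direction with the smallest p (at least 5 CPM, groups not overlapping), and the 2 most similar genes per member (log2 CPM, prior count 2). A gene that this rule picked is not reported here. The 15 alternatives were other scalings, filters, a threshold of 0.01, DESeq2 1.42.0, limma-voom (limma 3.58.1), a replicate block and leaving out each library; transcript length was added after seeing the data.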

Additional observations from a re-analysis of the deposited data

How the results depend on the processing

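No CCN gene changed direction or moved by more than the spread between its replicates under the 14 alternatives that refit it. Leaving out each library gave log2 fold changes of 0.84 to 0.91 for Ccn1, 1.21 to 1.32 for Ccn2, 1.95 to 2.12 for Ccn3, -0.04 to -0.0083 for Ccn4 and 1.54 to 1.6 for Ccn5. The replicate block gave 0.87 for Ccn1 and changed no call among the CCN genes. Deviations of same-numbered libraries from their group means were nearly uncorrelated (0.022, -0.078 and -0.0042). With 3 libraries per group this cannot tell whether same-numbered libraries shared a culture or day, which the labels do not state. The number of rows past the threshold was 4228 in the analysis as reported, 4134 with the block, 3319 with DESeq2 and 3049 at an adjusted p of 0.01, and each list kept its count within 1.5 times. Of the other genes named by the rule above, Smad4 alone lost its call, in 2 of the 14 alternatives that refit it. Its adjusted p of 0.0141 in the analysis as reported also did not pass the threshold of 0.01.

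With the longest coding transcript in place of the deposited feature length, a choice made after seeing the data, the level in CPM per kilobase became 176 with lenvatinib and 73.9 without it for Ccn2, 82.8 and 84.4 for Ccn4, and 26.2 and 8.78 for Ccn5. The share of Ccn1 in the family's summed level became 42.6% with lenvatinib and 41.9% without it, against 49.1% and 51.6% per deposited length, and the share of Ccn4 became 15.5% with lenvatinib and 28.6% without it. Since separate cultures are not stated for the 3 libraries of a group, the errors may be technical. The counts of Ccn6 stayed at or under the floor, so a difference in this gene was not tested.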
